A study of Homo sapiens with 50 samples.

Results

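The enzymes that make serine, asparagine and folate-bound one-carbon units were followed in HepaRG, a human liver cell line that matures in culture into a mixture of hepatocytes and primitive biliary epithelium. The 10 members are PHGDH, PSAT1, PSPH, ASNS, SHMT1, SHMT2, MTHFD1, MTHFD2, ALDH1L1 and ALDH1L2, out of 79112 genes and loci in the table. They were taken by gene name from a list of the pathway's enzymes, which was chosen with earlier results of these data known. Cells bought as differentiated cultures were exposed from day 8 to day 14 to quizalofop-p-ethyl, isoxaflutole or mesotrione, each at 0.1 uM, 10 uM and 1 mM, beside a control group. All groups, control included, were kept in Williams' E medium with 2% fetal bovine serum and 1% DMSO. Quizalofop-p-ethyl is a herbicide ester that blocks fatty acid synthesis in grasses, whereas isoxaflutole and mesotrione are herbicides aimed at a plant enzyme of tyrosine breakdown. Each of the 10 groups held 5 libraries of total RNA freed of ribosomal RNA. The rule for the members leaves out 1 library far from the rest, replicate 5 of the group at 10 uM of quizalofop-p-ethyl, so 49 of 50 libraries were used and that group held 4. Nothing in the labels ties the libraries of a group to separate dishes or days, and the p-values therefore speak only of spread among libraries, which may be technical.

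Cells make serine from an intermediate of glycolysis in 3 steps. PHGDH oxidises it, PSAT1 adds an amino group from glutamate and PSPH removes the phosphate. Serine hydroxymethyltransferase then splits serine to glycine and loads a one-carbon unit on folate, SHMT1 in the cytosol and SHMT2 in mitochondria. MTHFD1 and MTHFD2 interconvert the folate-bound units in those compartments, and ALDH1L1 and ALDH1L2 oxidise formyl-tetrahydrofolate to carbon dioxide. ASNS makes asparagine from aspartate and glutamine. ATF4, a transcription factor that is translated when amino acids are short or proteins misfold, is known to induce ASNS and enzymes of serine synthesis. The liver is a main site of serine, glycine and folate metabolism.

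ASNS (ENSG00000070669) lies on chromosome 7 from 97852118 to 97872542 on the minus strand of GRCh38, PSAT1 (ENSG00000135069) on chromosome 9 from 78297143 to 78330093 on the plus strand, and PHGDH (ENSG00000092621) on chromosome 1 from 119648411 to 119744226 on the plus strand. These 3 genes rose with all 3 compounds at 1 mM, so the 250 bases before a RefSeq start of each (GRCh38.p14) are shown, 5′ to 3′, with a match to TGATGNAA in capitals where there is one.
ASNS, chr7:97872409-97872658, minus strand: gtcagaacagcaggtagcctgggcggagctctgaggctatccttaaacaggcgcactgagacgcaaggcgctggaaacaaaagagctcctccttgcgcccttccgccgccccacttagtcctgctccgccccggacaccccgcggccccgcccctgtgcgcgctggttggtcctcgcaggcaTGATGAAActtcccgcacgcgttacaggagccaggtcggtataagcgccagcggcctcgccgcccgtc
PSAT1, chr9:78296875-78297124, plus strand: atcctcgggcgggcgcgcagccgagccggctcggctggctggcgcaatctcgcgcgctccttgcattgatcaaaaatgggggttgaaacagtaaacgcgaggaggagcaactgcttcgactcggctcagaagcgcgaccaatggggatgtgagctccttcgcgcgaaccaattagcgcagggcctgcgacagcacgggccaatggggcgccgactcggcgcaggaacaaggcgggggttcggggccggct
PHGDH, chr1:119711684-119711933, plus strand: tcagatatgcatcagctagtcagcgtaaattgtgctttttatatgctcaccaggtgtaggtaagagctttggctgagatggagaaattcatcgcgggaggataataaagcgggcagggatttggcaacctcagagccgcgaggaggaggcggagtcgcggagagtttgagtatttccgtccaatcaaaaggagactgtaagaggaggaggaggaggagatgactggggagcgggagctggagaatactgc
TGATGNAA is the core of the amino acid response element, a sequence that dimers of ATF4 and C/EBP factors bind. Windows of 300 bases, from 250 before a start to 50 after it, were found for 7 of the 10 members, in 9 windows in all. PSPH, SHMT2 and ALDH1L2 had no entry. Both strands were searched, and the 1 match among the 9 windows was in ASNS, on the plus strand of the gene, beginning 68 bases before the start. Of all 35116 windows 3.62% held it. CACGTG, an E-box, was found in the MTHFD1 window and in 7.26% of all windows. TGACNNNGC, the core of the antioxidant response element, was found in the MTHFD2 window and in 13.3% of all windows. These are matches of letters and show no binding.

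Levels are FPKM, fragments scaled to transcript length and to library size, summed over the named transcripts of a gene. The summed FPKM of the 49 libraries ran from 541874 to 801657, and 16996 to 20321 genes and loci reached 1 FPKM in a library. The library left out had 234909 and 6782. The table gives no depth, and the step that 1 fragment makes in low values put it at about 7080000 to 33880000 fragments in the 49 libraries and 3720000 in the library left out. Of the labelled cell types, all 12 hepatocyte markers were measurable, with a summed level of 19900 to 23400 FPKM in control libraries. Of 8 biliary markers 6 were measurable, with EPCAM and CFTR under 1 FPKM in every library. Fold changes are differences of log2(FPKM + 1), which understates the change of low genes, and 8 of the 10 members passed the filter of 1 FPKM in at least 5 libraries.

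At 1 mM of quizalofop-p-ethyl 7 of the 8 tested members differed from control. ASNS, PSAT1, PHGDH and SHMT2 rose and SHMT1, MTHFD1 and ALDH1L1 fell, while PSPH did not pass the test. That is 4 of 8 tested members higher and 3 lower, where 13% of all 24222 genes tested were called higher, 19.8% lower and 32.7% in either direction. The median log2 fold change of the 8 members was 0.38, against -0.08 over all genes tested. The groups did not overlap for 6 members, against 23.9% of all genes. In the same libraries all 12 hepatocyte markers fell, with a summed level of 228 to 5450 FPKM, against 19900 to 23400 FPKM in control libraries. Of 14 cell cycle genes 13 fell, with a summed level of 35.9 to 48.5 FPKM in exposed libraries and 177 to 232 FPKM in control libraries. Over the same libraries the summed level of 8 biliary markers was 85.6 to 186 FPKM, against 636 to 727 FPKM in control libraries. Of the 6 biliary markers tested 4 fell and none rose. EPCAM and CFTR, which were not tested, were at 0 in every exposed library. They reached at most 0.0575 and 0.855 FPKM in any of the 49 libraries, and EPCAM was also at 0 throughout at 10 uM of mesotrione. The 8 stellate markers summed to 14.9 to 26.5 FPKM, against 52.3 to 68.1 FPKM in control libraries. Of the 6 stellate markers tested 4 fell and 1 rose. The part of any of these in the changes of the members was not tested, and in bulk RNA fewer cells of a type and less RNA per cell cannot be told apart.

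ASNS had the largest log2 fold change of the 8 tested members. The 5 libraries at 1 mM of quizalofop-p-ethyl had 106, 108, 80.5, 102 and 85.2 FPKM of ASNS, against 9.50, 8.30, 9.85, 8.01 and 8.68 FPKM in control libraries. Every exposed library lay far above every control library. The means were 96.4 ± 12.7 and 8.87 ± 0.782 FPKM (SD, n = 5 each), a ratio of 10.9, with a log2 fold change of 3.30 (SE 0.14, adjusted p = 4.66e-23). The gene has 17 named transcripts, and 4 pseudogenes named after it averaged at most 0.0314 FPKM.

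PSAT1, the aminotransferase of the middle step, had 115, 142, 129, 127 and 105 FPKM in libraries exposed to 1 mM quizalofop-p-ethyl, against 17.7, 18.2, 16.9, 17.9 and 17.7 FPKM in control libraries. The groups were again far apart, and the control libraries were close to each other. PSAT1 averaged 124 ± 14.3 FPKM with the compound and 17.7 ± 0.469 FPKM in control libraries (SD, n = 5 each; log2 fold change 2.73, SE 0.10, adjusted p = 2.28e-25). PHGDH, the first enzyme of the route, had 73.8, 64.8, 70.3, 71.2 and 67.3 FPKM in exposed libraries and 21.6, 20.2, 21.0, 19.9 and 20.4 FPKM in control libraries. Its means of 69.5 ± 3.51 and 20.6 ± 0.692 FPKM (SD, n = 5 each) gave a log2 fold change of 1.70 (SE 0.10, adjusted p = 2.08e-18), with no overlap.

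PSPH, the last enzyme of the route, was not called. Its named transcripts (chromosome 7, 56011051 to 56051604, minus strand) summed to 3.22, 13.2, 8.99, 7.63 and 7.09 FPKM in libraries exposed to 1 mM quizalofop-p-ethyl, and to 12.4, 10.4, 11.4, 9.58 and 5.06 FPKM in control libraries. The groups overlapped and the log2 fold change was -0.31 (95% interval -0.76 to 0.14, adjusted p = 0.311). The locus also holds 8 transcripts that the authors assembled and left without a gene name. With these added, PSPH had 12.2 ± 1.65 FPKM in exposed libraries, between 10.2 and 14.5, and 13.3 ± 1.64 FPKM in control libraries, between 10.9 and 15 (SD, n = 5 each). The spread within groups narrowed, and the log2 fold change was then -0.12 (adjusted p = 0.351).

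**Figure D1:**
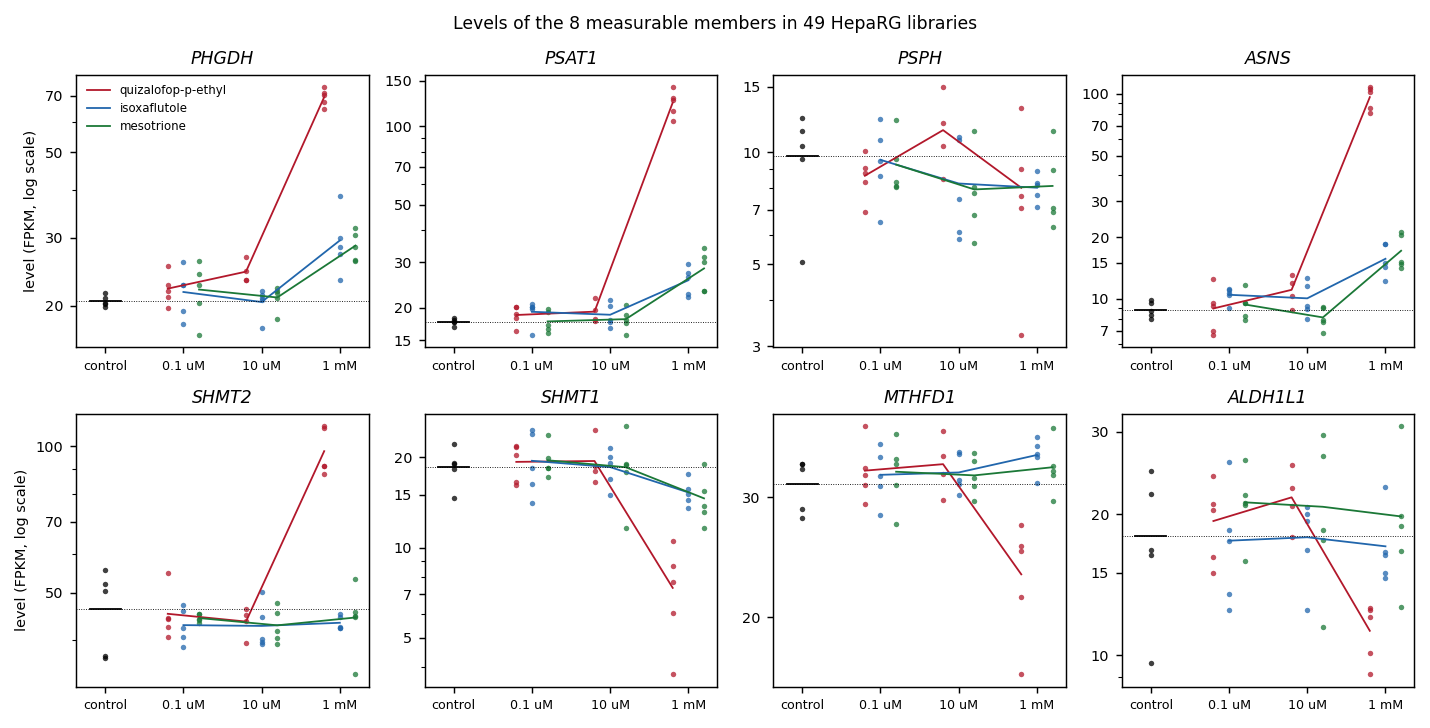
Level of each of the 8 measurable members in 49 libraries (y axis, FPKM on a log scale) by concentration (x axis). Dots are libraries, coloured lines join the group means of a compound, and the black bar and dotted line give the control mean. PHGDH, PSAT1, ASNS and SHMT2 stand highest at 1 mM of quizalofop-p-ethyl (ASNS 80.5 to 108 FPKM, against 8.01 to 9.85 FPKM in control libraries), while SHMT1 stands lowest there.

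The mitochondrial and the cytosolic serine hydroxymethyltransferase moved in opposite directions. SHMT2 (chromosome 12, 57229327 to 57234935, plus strand) had 110, 91.1, 91.1, 87.6 and 109 FPKM in libraries exposed to 1 mM quizalofop-p-ethyl, against 52.1, 36.7, 37.0, 55.7 and 50.4 FPKM in control libraries. It averaged 97.8 ± 10.8 and 46.4 ± 8.89 FPKM (SD, n = 5 each), a log2 fold change of 1.07 (SE 0.10, adjusted p = 5.19e-12). SHMT1 (chromosome 17, 18327860 to 18363563, minus strand) had 6.07, 7.67, 8.69, 10.5 and 3.78 FPKM in exposed libraries, against 19.1, 18.3, 14.6, 19.0 and 22.2 FPKM in control libraries. For both genes no exposed library reached the range of the control libraries. SHMT1 averaged 7.34 ± 2.56 and 18.6 ± 2.70 FPKM (SD, n = 5 each; log2 fold change -1.28, SE 0.17, adjusted p = 7.24e-08). Each locus also holds a further named gene, so its unnamed transcripts, 5 at SHMT1 with a mean of 4.16 FPKM in all and 3 at SHMT2 with 2.07 FPKM, were not added to either.

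The log2 ratio of SHMT2 to SHMT1, of FPKM + 1 in each library, was 3.62 ± 0.63 at 1 mM of quizalofop-p-ethyl (range 2.94 to 4.53) and 1.26 ± 0.21 in control (range 0.97 to 1.51; SD, n = 5 each). It is a description with no test. At 1 mM the ratio was 1.45 ± 0.11 with isoxaflutole and 1.55 ± 0.23 with mesotrione (SD, n = 5 each), ranges that overlap that of the control libraries. The 6 groups at lower concentrations had means from 1.13 to 1.20. With all 50 libraries in the fit the call of SHMT2 at 1 mM of quizalofop-p-ethyl against control was lost, at the same fold change (adjusted p = 0.0576). The leading transcript of SHMT2 held 31.2% of its level, the lowest share among the members, and tested by itself it gave 1.88 (adjusted p = 0.203).

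**Figure D2:**
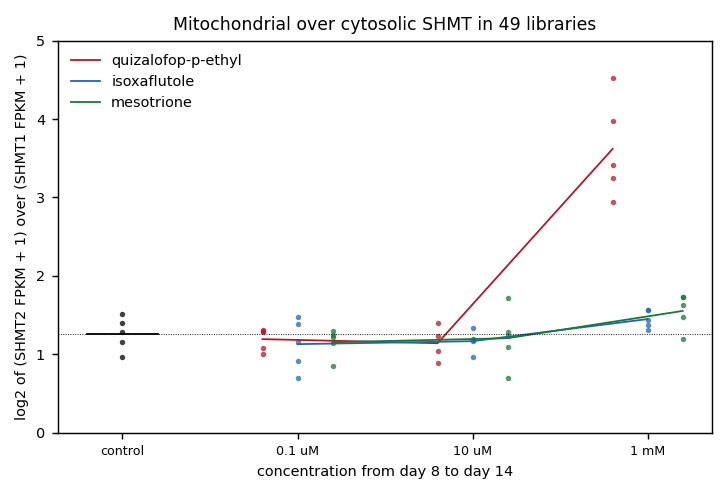
Log2 of SHMT2 FPKM + 1 over SHMT1 FPKM + 1 in each of 49 libraries (y axis) by concentration (x axis), with dots for libraries and lines through group means. The 5 libraries at 1 mM of quizalofop-p-ethyl lie between 2.94 and 4.53, above the control libraries, which lie between 0.97 and 1.51.

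MTHFD1 and ALDH1L1, which also act in the cytosol, were lower too. MTHFD1, the trifunctional enzyme of the cytosol (chromosome 14, 64388031 to 64463457, plus strand), had 25.0, 25.4, 21.4, 27.3 and 16.5 FPKM in libraries exposed to 1 mM quizalofop-p-ethyl, against 28, 33.5, 28.8, 33 and 33.5 FPKM in control libraries. The ranges came close without overlapping, at 27.3 and 28 FPKM. The log2 fold change was -0.44 (SE 0.09, adjusted p = 0.000163). With all 50 libraries in the fit this call was lost as well (adjusted p = 0.312).

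ALDH1L1, the cytosolic dehydrogenase of formyl-tetrahydrofolate (chromosome 3, 126103562 to 126197994, minus strand), had 9.11, 12.6, 12.5, 12.1 and 10.1 FPKM in libraries exposed to 1 mM quizalofop-p-ethyl, against 22.1, 9.63, 16.8, 24.7 and 16.4 FPKM in control libraries. Control replicate 2 lay inside the range of the exposed libraries. The log2 fold change was -0.57 (SE 0.22, adjusted p = 0.0371), and the call was lost when replicate 1 or 5 of the exposed libraries or replicate 1, 3, 4 or 5 of the control libraries was left out (adjusted p between 0.0501 and 0.134). Its locus holds 2 unnamed transcripts. With these added the levels were 11.9 ± 1.79 FPKM with the compound, between 10.1 and 14.3, and 23.3 ± 2.43 FPKM in control libraries, between 19.9 and 26.3 (SD, n = 5 each). The groups were then apart, at a log2 fold change of -0.91 (adjusted p = 2.63e-08). The call on named transcripts was also lost with the 2 groups alone (adjusted p = 0.0769), without the filter (0.0734), with all 50 libraries (0.404) and for the leading transcript by itself (-0.44, adjusted p = 0.542).

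**Figure D3:**
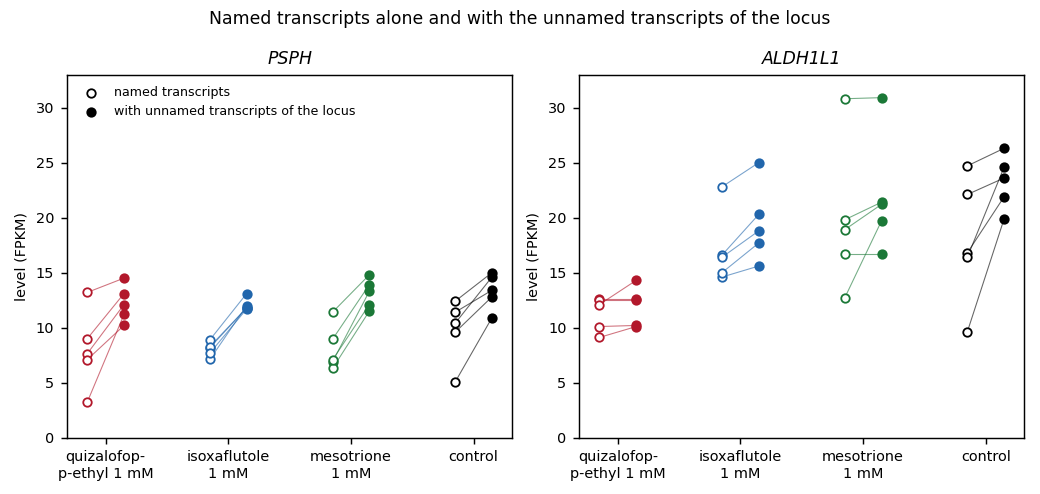
Level of PSPH and ALDH1L1 (y axis, FPKM) in the 20 libraries of the groups at 1 mM and of control (x axis), as named transcripts alone (open circles) and with the unnamed transcripts of the locus (filled circles), joined for each library. With unnamed transcripts the control libraries of ALDH1L1 lie between 19.9 and 26.3 FPKM, above the 10.1 to 14.3 FPKM of the libraries exposed to quizalofop-p-ethyl, while those of PSPH overlap.

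The mitochondrial counterparts of these enzymes were listed near 0. MTHFD2 (chromosome 2, 74198562 to 74217565, plus strand) ran from 0 to 0.232 FPKM over the 49 libraries, with 6 libraries at 0, and ALDH1L2 (chromosome 12, 105019784 to 105084577, minus strand) from 0.010 to 0.148 FPKM. Neither reached 1 FPKM in any library, so neither was tested, and no fold change is given. Whether so low a level means little RNA or reads assigned elsewhere cannot be told from this table. At 1 mM of quizalofop-p-ethyl MTHFD2 had 0.0229, 0.0195, 0, 0.0156 and 0.0138 FPKM, against 0.216, 0.0226, 0.0380, 0.0504 and 0.0358 FPKM in control libraries. No unnamed transcript lies in either locus, and the 7 MTHFD2 pseudogenes in the table reached at most 0.176 FPKM.

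ASNS, PSAT1 and PHGDH rose at 1 mM of isoxaflutole and at 1 mM of mesotrione, and no other member was called. With isoxaflutole 3 of 8 tested members were higher and none lower, against 1.16% of all genes called higher and 2.42% in either direction. With mesotrione the count was also 3 higher and none lower, against 0.178% higher and 0.879% in either direction. The groups did not overlap for the same 3 genes with both compounds, against 4.86% of all genes for isoxaflutole and 3.15% for mesotrione. Both comparisons use the same 5 control libraries. The summed level of hepatocyte markers was 10500 to 19200 FPKM with isoxaflutole and 12500 to 20600 FPKM with mesotrione, against 19900 to 23400 FPKM in control libraries, with 1 of 12 markers higher and 1 lower in each comparison. The biliary markers summed to 484 to 611 FPKM with isoxaflutole and 425 to 563 FPKM with mesotrione, against 636 to 727 FPKM in control libraries. Of the 6 tested, 1 was higher and 1 lower with isoxaflutole, and 2 were lower with mesotrione. The stellate markers summed to 20.6 to 28.8 FPKM with isoxaflutole and 21.2 to 33.4 FPKM with mesotrione, against 52.3 to 68.1 FPKM in control libraries. Of the 6 stellate markers tested 3 were lower with isoxaflutole and 2 with mesotrione, and none was higher. The part of all these markers in the changes of the members was not tested.

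ASNS had 14.9, 18.5, 18.5, 12.2 and 14.3 FPKM with 1 mM isoxaflutole and 15.2, 21.2, 20.4, 14.2 and 14.8 FPKM with 1 mM mesotrione, against 8.01 to 9.85 FPKM in control libraries. Both exposed groups lay above the control libraries and overlapped each other. The log2 fold changes were 0.75 (SE 0.14, adjusted p = 0.000508) for isoxaflutole and 0.86 (SE 0.14, adjusted p = 0.000108) for mesotrione.

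PSAT1 had 29.5, 26.2, 27.3, 22.6 and 22.1 FPKM with 1 mM isoxaflutole and 29.9, 34, 31.4, 23.2 and 23.3 FPKM with 1 mM mesotrione, against 16.9 to 18.2 FPKM in control libraries. Its log2 fold changes were 0.50 (SE 0.10, adjusted p = 0.00109) and 0.63 (SE 0.10, adjusted p = 6.10e-05) in that order. PHGDH had 38.6, 23.4, 30, 27.3 and 28.4 FPKM with isoxaflutole and 28.4, 31.8, 26.2, 30.5 and 26.3 FPKM with mesotrione, against 19.9 to 21.6 FPKM in control libraries. All 10 exposed libraries lay above the control libraries for both genes. PHGDH changed by 0.48 (SE 0.10, adjusted p = 0.00209) with isoxaflutole and by 0.45 (SE 0.10, adjusted p = 0.00954) with mesotrione on the log2 scale. These 4 calls were lost when the aberrant library entered the fit, and with it the shared estimate of spread. With all 50 libraries the fold changes were the same and the adjusted p was 0.376 and 0.229 for PSAT1 and 0.237 and 0.521 for PHGDH, isoxaflutole before mesotrione, while ASNS was called with both. Tested by its leading transcript alone, ASNS was not called with either compound, at log2 fold changes of 0.87 and 0.80 (adjusted p = 0.631 and 0.789). Neither was PHGDH, at 0.51 and 0.50 (adjusted p = 0.0670 and 0.129). In a fit of the 2 groups alone, which does not hold the aberrant library, PHGDH missed the threshold with isoxaflutole (adjusted p = 0.0824). The calls of ASNS and PSAT1 with both compounds and of PHGDH with mesotrione held there.

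The other 5 tested members were not called at 1 mM of these compounds. SHMT2, which rose with quizalofop-p-ethyl, had a log2 fold change of -0.07 (95% interval -0.27 to 0.13) with isoxaflutole and -0.05 (-0.25 to 0.15) with mesotrione. SHMT1, the cytosolic enzyme, had -0.26 (-0.61 to 0.09) and -0.34 (-0.69 to 0.01). MTHFD1 had 0.14 (-0.05 to 0.33) and 0.08 (-0.11 to 0.27). PSPH and ALDH1L1 had intervals that reached beyond 0.2 in size on both sides of 0.

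**Figure D4:**
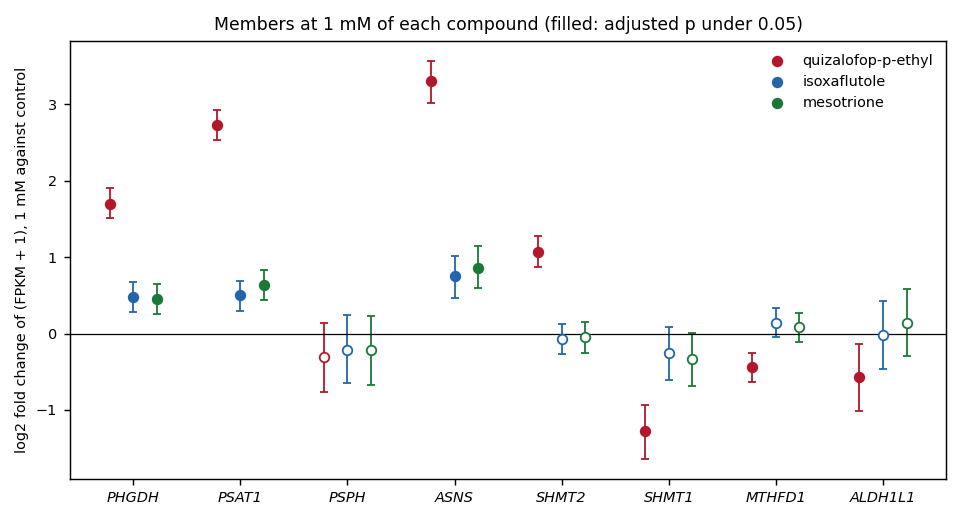
Log2 fold change of FPKM + 1 at 1 mM of each compound against control (y axis) for the 8 tested members (x axis), with 95% intervals from limma and filled symbols where the adjusted p is under 0.05. ASNS, PSAT1 and PHGDH lie above 0 for all 3 compounds, highest for quizalofop-p-ethyl (3.30, 2.73 and 1.70).

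Compounds were also compared directly at the same concentration. At 1 mM quizalofop-p-ethyl had ASNS, PSAT1, PHGDH and SHMT2 higher and SHMT1, MTHFD1 and ALDH1L1 lower than isoxaflutole, and the same 7 members in the same directions against mesotrione. Over all genes 29.7% were called against isoxaflutole, 11.7% higher and 18.1% lower, and 30.2% against mesotrione, 12.6% higher and 17.6% lower. The groups did not overlap for these 7 members in either comparison, against 20.8% and 21.3% of all genes. ASNS differed by 2.55 (SE 0.14, adjusted p = 3.22e-19) from isoxaflutole and by 2.43 (SE 0.14, adjusted p = 1.39e-18) from mesotrione on the log2 scale. The difference in ALDH1L1 from isoxaflutole was near the threshold (-0.55, SE 0.22, adjusted p = 0.0491) and was lost without any 1 of replicates 1 to 5 of quizalofop-p-ethyl or replicates 1, 3, 4 or 5 of isoxaflutole (adjusted p from 0.0515 to 0.147). Without replicate 4 of mesotrione the difference in ALDH1L1 from mesotrione, -0.72 (adjusted p = 0.00917), was -0.55 (adjusted p = 0.0570). With all 50 libraries ALDH1L1 (adjusted p = 0.450 against isoxaflutole and 0.293 against mesotrione), SHMT1 (0.0528 and 0.0776) and MTHFD1 (0.174 and 0.233) lost both calls, and SHMT2 that against mesotrione (0.0506). By their leading transcripts SHMT2 (0.606 and 0.301) and ALDH1L1 (0.347 and 0.583) were called against neither compound.

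Between isoxaflutole and mesotrione at 1 mM limma called no member, against 0.256% of all genes, and no member had an unadjusted p under 0.05. The difference, isoxaflutole minus mesotrione, was -0.12 for ASNS (95% interval -0.40 to 0.16), -0.14 for PSAT1 (-0.33 to 0.06) and 0.03 for PHGDH (-0.17 to 0.23). These intervals leave room for differences of that size and do not show that the compounds act alike.

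At 10 uM and 0.1 uM limma called no member against control with any compound. Of all genes 0.00826% were called at 10 uM of quizalofop-p-ethyl and 0% in the other 5 comparisons. PHGDH at 10 uM of quizalofop-p-ethyl was the 1 member with an unadjusted p under 0.05 in these 6 comparisons. It had 26.8, 24.6, 23.3 and 23.4 FPKM in the 4 libraries used, against 21.6, 20.2, 21.0, 19.9 and 20.4 FPKM in control libraries. The 4 libraries lay above all control libraries, at a log2 fold change of 0.24 (unadjusted p = 0.0278, adjusted p = 1), and 2.21% of all genes did not overlap in this comparison. ASNS there had 13.1, 10.3, 12 and 8.87 FPKM, which overlaps the control libraries. Over the 6 comparisons the log2 fold changes of the 8 members ran from -0.25 to 0.32. Between compounds at these concentrations no member was called either, against 0.00413% of all genes for quizalofop-p-ethyl and isoxaflutole at 10 uM, 0.0124% for quizalofop-p-ethyl and mesotrione at 10 uM and 0% in the other 4 comparisons. The unadjusted p was under 0.05 for PHGDH in the first and for ASNS, PHGDH and PSPH in the second of these (0.00931 for ASNS, adjusted p = 0.887).

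The step between 10 uM and 1 mM held the calls. For quizalofop-p-ethyl 4 members were higher and 3 lower at 1 mM than at 10 uM, against 11.6% and 19.6% of all genes (31.2% in either direction). The groups did not overlap for these 7, against 26.6% of all genes, with ASNS at 3.02 (SE 0.15, adjusted p = 7.81e-21) and SHMT1 at -1.34 (SE 0.19, adjusted p = 1.13e-07) on the log2 scale. With the aberrant library in the 10 uM group SHMT1 was at -0.58 (adjusted p = 0.268), ALDH1L1 at -0.04 (0.966) and MTHFD1 at 0.06 (0.898), and the leading transcript of SHMT2 was not called (0.652), nor was that of ALDH1L1 (0.105). For isoxaflutole ASNS, PSAT1 and PHGDH were higher at 1 mM, against 1.43% of all genes higher and 2.84% in either direction, by 0.60, 0.42 and 0.49 on the log2 scale (adjusted p = 0.00728, 0.00734 and 0.00138). All 3 of these calls were lost in a fit of the 2 groups alone (adjusted p = 0.103, 0.0877 and 0.0963), by leading transcript (0.644, 0.110 and 0.0678) and with all 50 libraries (0.165, 0.576 and 0.202), in the same order of genes. For mesotrione the same 3 genes were higher, against 0.219% of all genes higher and 0.970% in either direction, by 0.98, 0.61 and 0.43 (adjusted p = 1.21e-05, 0.000113 and 0.0167). The call of PHGDH for mesotrione was lost without replicate 2 at 1 mM (adjusted p = 0.0693) or replicate 2 at 10 uM (adjusted p = 0.0672). With the 2 groups alone PSAT1 and PHGDH lost their calls for mesotrione (adjusted p = 0.104 and 0.0741), as they did with all 50 libraries (0.294 and 0.658), and by leading transcript ASNS and PHGDH did (0.637 and 0.287). PSPH at 1 mM against 10 uM of quizalofop-p-ethyl, -0.54 with an adjusted p of 0.0749, was called lower without replicate 2 at 1 mM (-0.73, adjusted p = 0.0133) or without replicate 3 at 10 uM (-0.67, adjusted p = 0.0448). With unnamed transcripts added it was called at -0.25 (adjusted p = 0.0484). Between 10 uM and 0.1 uM no member was called with any compound, nor had an unadjusted p under 0.05, against 0.00413% of all genes called for quizalofop-p-ethyl and 0% for isoxaflutole and mesotrione.

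Neighbouring pathways were read as lists beside the members, and these lists too were chosen with earlier results of these data known. Their counts at 1 mM of quizalofop-p-ethyl stand beside 13% of all genes called higher and 19.8% lower, and beside the fall of all 12 hepatocyte markers in the same libraries (median log2 fold change -4.20), whose part was not tested. Of 14 tested genes of the ATF4 response 12 rose and 1 fell at 1 mM of quizalofop-p-ethyl, with a median log2 fold change of 2.48, against -0.08 over all genes. TRIB3, a pseudokinase that holds back ATF4 signalling, had 234 ± 59.1 FPKM with the compound and 11.3 FPKM in control libraries (SD, n = 5; log2 fold change 4.22, SE 0.11, adjusted p = 1.99e-29). CHAC1, which breaks down glutathione, changed by 3.52 (SE 0.16), SLC3A2, the heavy chain of amino acid exchangers, by 3.50 (SE 0.10) and PPP1R15A, a subunit of the phosphatase that acts on eIF2 alpha, by 2.93 (SE 0.15). ATF4 itself changed by 2.23 (SE 0.16, adjusted p = 1.59e-15), with 292 ± 32.7 FPKM and 61.7 FPKM in the same order. At 1 mM of isoxaflutole 3 of the 14 rose, CHAC1, SLC3A2 and SESN2, against 1.16% of all genes. At 1 mM of mesotrione 3 rose, SLC7A11, TRIB3 and SLC3A2, against 0.178% of all genes, and in both comparisons none fell.

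The folate cycle outside the members was mixed at 1 mM of quizalofop-p-ethyl, with 3 of 14 tested genes higher and 5 lower, where 32.7% of all genes were called in either direction. MTHFD1L, the mitochondrial formyl-tetrahydrofolate synthetase, rose, with 22 ± 4.03 FPKM against 6.88 FPKM in control libraries (SD, n = 5; log2 fold change 1.57, SE 0.16, adjusted p = 7.59e-11). GGH, which trims the glutamate tail of folates, fell by 2.61 on the log2 scale and TYMS, which makes thymidylate, by 1.21. TYMS is also known for its rise in dividing cells, and 13 of 14 cell cycle genes fell in the same comparison, whose part was not tested. None of the 14 was called with isoxaflutole or mesotrione at 1 mM, where 2.42% and 0.879% of all genes were called in either direction.

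Of 13 tested genes around serine and glycine breakdown 7 were lower and 1 higher at 1 mM of quizalofop-p-ethyl. Over all genes 19.8% were lower and 13% higher. The median log2 fold change of the list was -0.69, against -0.08 over all genes. Not all enzymes of the list use up these amino acids. GATM, which uses glycine for creatine synthesis, had 20.9 ± 9.85 FPKM with the compound and 282 FPKM in control libraries (SD, n = 5; log2 fold change -3.83, SE 0.26, adjusted p = 4.26e-16). AGXT, the peroxisomal alanine-glyoxylate aminotransferase, changed by -3.07 and was listed at 0 in at least 1 exposed library. PIPOX, which oxidises sarcosine, changed by -1.83 and GLDC, the glycine decarboxylase, by -1.78. SDSL, a relative of serine dehydratase, was the 1 gene of the list that rose (1.51), and with isoxaflutole at 1 mM it rose by 0.38 (adjusted p = 0.0160).

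Purine synthesis, which takes up folate-bound one-carbon units, had 4 of 6 genes higher and none lower at 1 mM of quizalofop-p-ethyl. ADSL changed by 0.59, PPAT, the first enzyme of the route, by 0.56, GART by 0.40 and ATIC by 0.20 on the log2 scale. The methionine cycle had 2 of 8 higher and 3 lower. CTH, which makes cysteine, rose by 2.17 and MAT2A, which makes S-adenosylmethionine, by 1.08, while GNMT fell by 0.78 and BHMT2 by 0.51. With isoxaflutole at 1 mM BHMT2 rose by 0.31 (adjusted p = 0.0117) and CBS fell by 0.66 (adjusted p = 0.00643). In that comparison 2.42% of all genes were called in either direction. With mesotrione at 1 mM none of the 8 was called, against 0.879% of all genes. Other enzymes of non-essential amino acids had 3 of 13 higher and 3 lower at 1 mM of quizalofop-p-ethyl, a count near that of all genes (13% higher and 19.8% lower). GPT2, the mitochondrial alanine aminotransferase, changed by 1.60, GPT, its cytosolic counterpart, by -1.20, GOT1 by 0.85 and PRODH by -0.80.

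**Figure D5:**
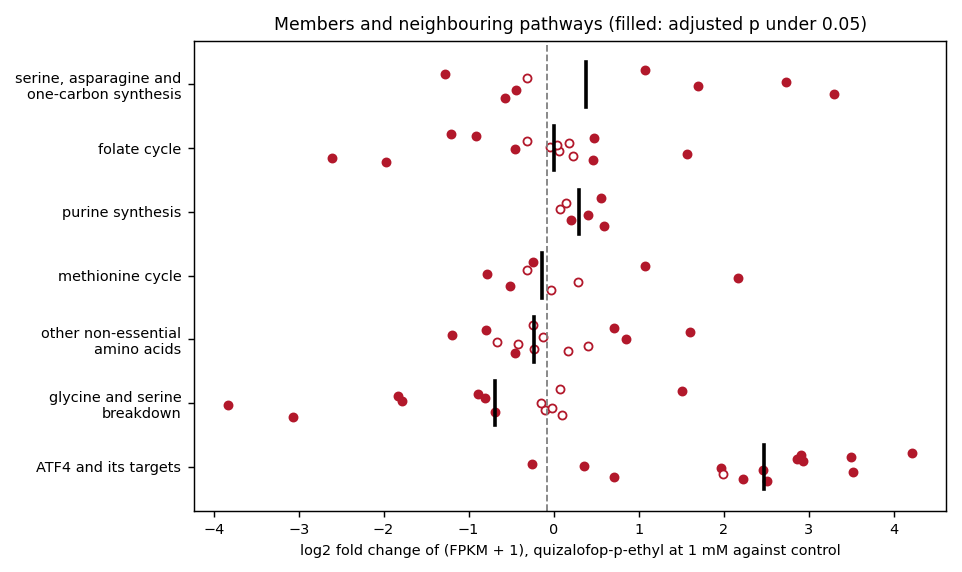
Log2 fold change of FPKM + 1 at 1 mM of quizalofop-p-ethyl against control (x axis) for tested genes of the members and of 6 neighbouring lists (y axis). Dots are genes, filled where the adjusted p is under 0.05, black bars are list medians and the dashed line is the median of all genes. The ATF4 list has the highest median (2.48) and the list around glycine and serine breakdown the lowest (-0.69).

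Across the 49 libraries ASNS, PSAT1 and PHGDH varied together, with Pearson's r of log2(FPKM + 1) of 0.97 for ASNS and PSAT1, 0.94 for ASNS and PHGDH and 0.95 for PSAT1 and PHGDH. These libraries share their groups, and the 5 at 1 mM of quizalofop-p-ethyl lie apart. Over the other 44 libraries the values were 0.81, 0.65 and 0.74 in the same order. SHMT2 correlated with ASNS at 0.85 over 49 libraries and at -0.09 over 44, and PSPH with ASNS at -0.16 and 0.06. The coefficients are descriptions and carry no test.

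The genes most like each member were sought outside the members, which were left out of the ranking. For ASNS over 49 libraries these were SRXN1, SLC7A11 and GSR (r from 0.962 to 0.969). Over 44 libraries ENDOD1 was most like ASNS (0.844), followed by SRXN1 (0.789), while the member PSAT1 had 0.81. PSAT1 was most like CYP1B1, SLC1A5 and WARS over 49 libraries (0.976 to 0.98) and most like SLC1A5, SRXN1 and TRIB3 over 44 (0.799 to 0.815). SLC1A5, a carrier of glutamine and other neutral amino acids, was also among the 3 most like PHGDH in both sets (0.966 and 0.807). SHMT2 was most like TRIB3, SARS and SESN2 over 49 libraries (0.918 to 0.925), while over 44 no gene passed 0.554. SHMT1 was most like ALDH4A1 in both sets (0.905 and 0.797). MTHFD1 was most like MCM6 over 49 libraries (0.871) and most like SRPRA over 44 (0.721), where MCM6 had 0.654. For PSPH no gene passed 0.594 in either set.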

How the data were processed

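RNA of 50 libraries in 10 groups was sequenced, per the labels' protocols, as 75 bp pairs in 3 pools whose membership they do not state. HISAT, HISAT2, StringTie and the GRCh38 build appear, without versions, in the submitters' processing notes. The authors deposited FPKM values for 239290 transcripts, 40117 of them without a gene name; FPKM corrects for length and depth, not for the larger error of shallow libraries, and reads of overlapping transcripts are split by estimation. Of the deposited FPKM values 24 lay slightly below 0 and were set to 0, and 1 broken record was rejoined.

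FPKM were summed per gene name, and unnamed transcripts kept their own locus. A gene entered the fit if 5 or more of the 49 libraries reached 1 FPKM, which 24222 did. The fit was made by limma 3.58.1 (R 4.3.3) on log2(FPKM + 1) (1 mean per group, trend and robust settings, two-sided, Benjamini-Hochberg within each of 24 comparisons, threshold 0.05). The 9 exposed groups were compared with control, compounds at the same concentration (9) and concentrations of a compound (6). The spread is shared over all groups. The members and the lists were chosen with earlier results of these data known. All 10 members are named. For likeness up to 3 genes per member were taken, outside the members and with a mean of at least 5 FPKM, of which the text gives a part. In each pathway list up to 4 genes past the threshold with the largest change at 1 mM are named. In the pathway lists 1 gene that this rule names is not reported here. ATF4, SDSL, and the genes called with isoxaflutole and mesotrione are named beside these. The fit was tested on simulated data with known changes. The motifs were chosen with the files at hand.

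Other settings tried were no filter, a pseudocount of 0.1, scaling by median ratios, the 2 groups alone and all 50 libraries. The 5 runs of adjacent numbers in the sample titles, which are not the replicate numbers, were tried as a block. Unnamed transcripts were added where a locus holds a single named gene (18349 transcripts, which leaves those of SHMT1 and SHMT2 aside). The leading transcript was tested by itself, and each library was left out in turn. Python 3.11.15 with numpy 2.4.6 and pandas 2.3.3 prepared the values, and matplotlib 3.10.9 drew the plots. The number of libraries and a depth known only as an estimate limit precision, so no counting intervals are given.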

Additional observations from a re-analysis of the deposited data

Results flagged for a closer look

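Of 100 sets of 4 or 5 libraries (10 members in 10 groups) 7 held a library set apart from the rest of its group by Dixon's test at the 95% level, and chance sets apart about 1 in 20. PHGDH was 17.5 FPKM in replicate 1 of isoxaflutole at 10 uM, against 20.7 to 21.8 FPKM in the other libraries of the group. PSAT1 was 15.7 FPKM in replicate 5 of isoxaflutole at 0.1 uM, against 19.8 to 20.7 FPKM. SHMT2 was 54.9 FPKM in replicate 1 of quizalofop-p-ethyl at 0.1 uM, against 40.6 to 44.3 FPKM. ALDH1L1 was 22.8 FPKM in replicate 4 of isoxaflutole at 1 mM, against 14.6 to 16.6 FPKM. MTHFD2, listed near 0 throughout, was 0.232 FPKM in replicate 4 of mesotrione at 10 uM, 0.159 FPKM in replicate 4 of isoxaflutole at 0.1 uM and 0.216 FPKM in replicate 1 of control. No cause was tested.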

How the results depend on the processing

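Calls of ASNS, PSAT1, PHGDH and SHMT1 at 1 mM of quizalofop-p-ethyl against control held under every alternative run. Adding unnamed transcripts could not change the levels of PSAT1 and PHGDH, whose loci hold none. Those of SHMT1 were not added, so that setting did not test its call. Fitting the 2 groups alone left 0 members called between 1 mM and 10 uM of isoxaflutole and 1 for mesotrione, and 280 and 89 genes for isoxaflutole and mesotrione at 1 mM against control, where the fit of 49 libraries called 585 and 213. The leading transcript by itself gave 1 member for isoxaflutole and 1 for mesotrione against control, 0 and 1 between their 1 mM and 10 uM groups, and 4527, 173 and 63 genes for quizalofop-p-ethyl (7926 in the 49-library fit), isoxaflutole and mesotrione at 1 mM against control. All 50 libraries gave 4 members for quizalofop-p-ethyl against control, against isoxaflutole and against its 10 uM group, 3 against mesotrione, 1 each for isoxaflutole and mesotrione against control, 0 and 1 for these between 1 mM and 10 uM, and 4645, 80 and 26 genes at 1 mM against control. MTHFD1 between 1 mM and 10 uM of quizalofop-p-ethyl turned to 0.06 (adjusted p = 0.898) there, since the library left out belongs to the 10 uM group. Unnamed transcripts raised the counts of genes at 1 mM to 880 for isoxaflutole and 365 for mesotrione. Other causes were not tested.

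Correlations within runs of sample numbers were low (44 pairs with control, r -0.078 to 0.143, 3 above 0.1). Of the 44 libraries 16 correlated best with the control library of their own run, out of 5 control libraries. Whether the runs pair the libraries was not tested. With the runs as a block limma called 343 genes for mesotrione at 1 mM against control, and 213 without it. The block also called PSPH between 1 mM and 10 uM of quizalofop-p-ethyl (-0.51, adjusted p = 0.0425).

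Leaving out 1 library at a time gave 6 to 7 members for quizalofop-p-ethyl at 1 mM against control, isoxaflutole or mesotrione, 7 to 8 against its 10 uM group and 2 to 3 for mesotrione between 1 mM and 10 uM. All genes at 1 mM against control then ranged from 7120 to 7678, 382 to 487 and 154 to 213 for quizalofop-p-ethyl, isoxaflutole and mesotrione, with 382 without replicate 2 of isoxaflutole. No filter ended the call of ALDH1L1 against control (adjusted p = 0.0734) and, like median-ratio scaling, that against isoxaflutole (0.0994 and 0.0897). The other calls of members held under these settings and under a pseudocount of 0.1. Members under 1 FPKM could not be tested.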

Other observations

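The share of a gene's level that its leading named transcript held differed between members, from 92.8% for PHGDH and 95.7% for PSAT1 to 62.1% for PSPH, 53.3% for ASNS and 31.2% for SHMT2 over the 49 libraries. For ASNS the share was 46.4 ± 23.3% at 1 mM of quizalofop-p-ethyl (SD, n = 5) and 61.9 ± 23.3% in control (SD, n = 5), so libraries of a group differed more than the groups. For SHMT2 it was 40.6 ± 25.9% and 31.7 ± 30.2% in the same order (SD, n = 5 each). MTHFD1 had 69.6 ± 6.4% and 81.8 ± 6.7%, a larger gap beside its spread, and SHMT1 40.2 ± 26.5% and 58.3 ± 4.3% (SD, n = 5 each). The shares were not tested. MTHFD2L, the relative of MTHFD2 in mitochondria, was listed at 1.68 ± 0.434 FPKM at 1 mM of quizalofop-p-ethyl and 1.67 FPKM in control (SD, n = 5 each; log2 fold change 0.06, adjusted p = 0.887).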
